A study of Macaca fascicularis with 6 samples.

Results

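The genes described here carry, take up, sense and store iron in the liver. They were the 10 genes TF, CP, TFRC, TFR2, HFE, HAMP, SLC40A1, FTL, FTH1 and HMOX1, and every probe set whose only annotated symbol was one of them was taken. This gave 37 of the 54675 probe sets on the array, for 9 of the 10 genes, among 19775 genes named on it in this way, since FTH1 was not analysed here. Of the 37, 27 were bright enough to be tested, with a mean signal over the 6 arrays of at least 129, the median over all probe sets, and the other 10 are given as values only.

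RNA had been taken from liver tissue of cynomolgus macaques (Macaca fascicularis), 3 given vehicle and 3 given an LXR ligand, with each animal on its own Affymetrix array. LXR, the liver X receptor, is a nuclear receptor for oxidised cholesterol. The ligand arrays carry GW in their titles, and the ligand's identity, its dose, the length of treatment and the animals' age were not given in the sources used here. The probes were designed against human transcripts, so a sequence difference between human and macaque can lower a signal, and each gene goes by the human symbol.

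Iron travels in plasma bound to transferrin, after oxidation by ceruloplasmin, and cells take it up through transferrin receptors and keep it in ferritin. Hepatocytes sense the iron load through HFE, the second transferrin receptor and the bone morphogenetic protein (BMP) pathway, and answer by secreting hepcidin, which removes the exporter ferroportin from cell surfaces. Macrophages of the liver take up old red cells, open their haem with haem oxygenase and return the iron to plasma through ferroportin.

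The signals are MAS5 intensities in arbitrary units, and their 2% trimmed mean was about 500 on every array. As a check of the treatment, SREBF1, a lipogenic transcription factor and known LXR target, had signals of 337, 408 and 541 with vehicle and 3826, 1289 and 3450 with the ligand, a log2 difference of 2.57 ± 0.39 (SE). ABCG1 and MYLIP, 2 further known targets, were 2.48-fold and 2.56-fold higher. Fold changes and log2 differences are on the log2(signal + 16) scale throughout. In limma's moderated test of these values, 0 of 27304 probe sets passed an adjusted p of 0.05, and 1523 (5.58%) had an unadjusted p under 0.05. The small number of animals, 3 in a group, limits the precision of all that follows.

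HFE had the clearest difference among the iron genes, with a signal 1.91-fold higher in the ligand group, and HMOX1, which breaks down haem, was 1.94-fold higher with wide spread. The best-measured probe sets of TFRC, SLC40A1, FTL and HAMP differed by less than the spread between animals. The 2 bright probe sets of TFR2 were both 1.23-fold lower with the ligand, and the probe sets of TF and CP went different ways. None of the 27 tested probe sets passed in limma, adjusted over the 27304, where adjusted p ran from 0.710 to 0.999. Unadjusted, 4 of the 27 (14.8%) had a p under 0.05, against 5.58% of all probe sets tested, and they belonged to HFE, with 2, CP and HMOX1. All 4 were higher with the ligand and 0 were lower, where 3.24% of all probe sets tested were higher and 2.33% lower at that p. In 3 of the 27, all of them HFE, all ligand signals exceeded all vehicle signals, as in 5.99% of all probe sets tested, and in 0 of the 27 all ligand signals were below, as in 4.96% of all. HFE 206086_x_at, among the 4 and among the 3, reached the mean signal required for testing through its ligand signals. Its mean was 66.1 with vehicle and 231 with the ligand. Conversely, TFRC 237215_s_at, lower with the ligand, reached it through its vehicle signals, with means of 199 and 117. Of the 27, 18 were higher and 9 lower, and their median log2 difference was 0.11, against 0.0032 over all probe sets tested. Both rested on ligand array 1, which stood apart on the first principal component of all arrays: without it 14 of 27 were higher and the median was 0.0083, against 0.019 over all probe sets tested. Probe sets of one gene read the same transcripts in the same animals and are not replicates. The members were chosen with earlier results of these data known, so these counts are description and no test.

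**Figure D1:**
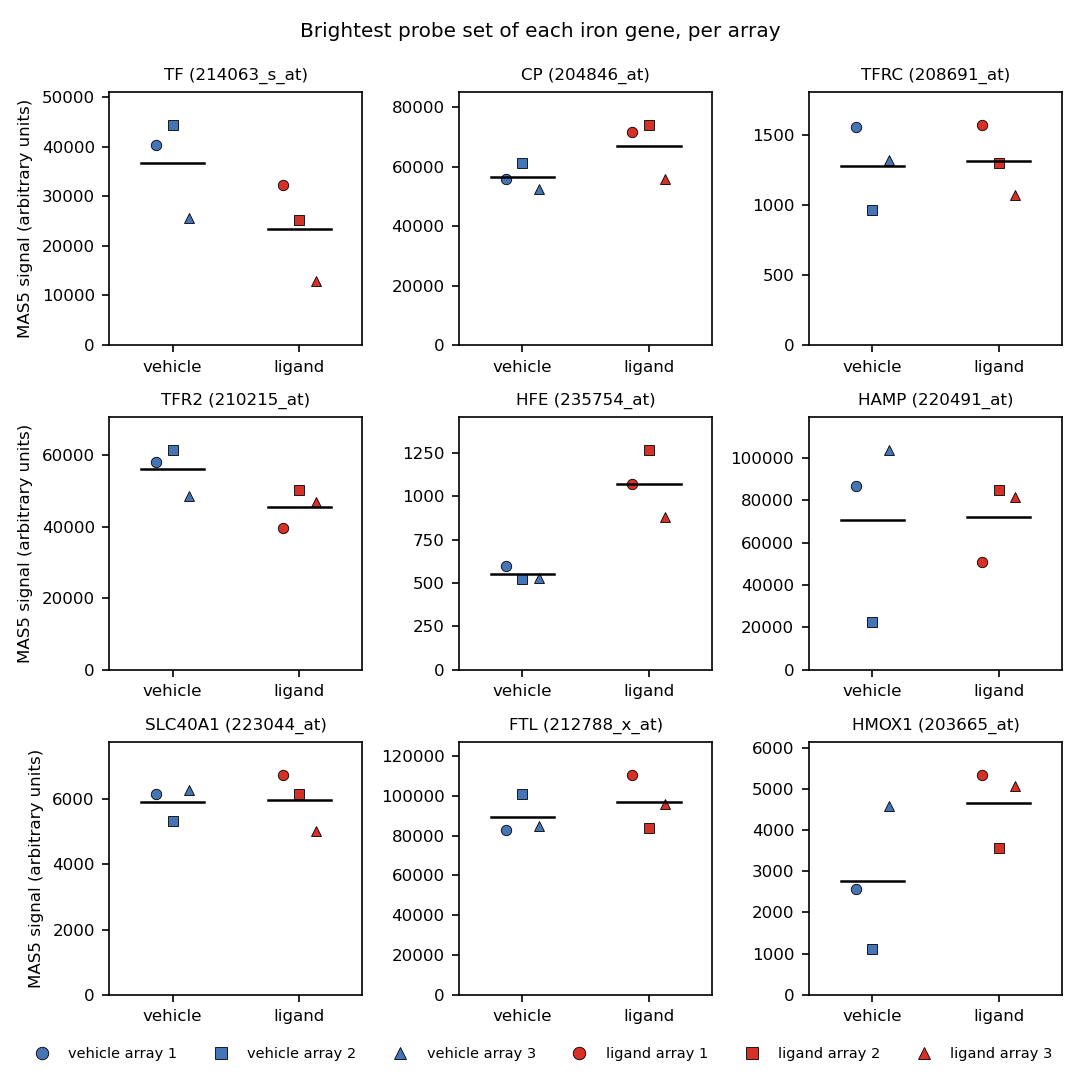
MAS5 signal (vertical axis, arbitrary units, from 0) of the brightest probe set of each of the 9 measured iron genes, with 1 point per array and a bar at the group mean, vehicle in blue and ligand in red. Only in the HFE panel do the groups separate, at 523 to 596 with vehicle and 879 to 1267 with the ligand, while HAMP with vehicle runs from 22384 to 103681.

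Transferrin, encoded by TF, is the protein that hepatocytes secrete to carry iron in plasma. Its brightest probe set, 214063_s_at, had signals of 40301, 44374 and 25629 with vehicle and 32241, 25272 and 12921 with the ligand, in the order of arrays 1 to 3 used throughout. Ligand array 3 was the lowest of the 6, and the groups overlapped. The log2 difference was -0.71 ± 0.32 (SE), with a 95% interval from -1.43 to 0.01, and limma's adjusted p was 0.880. It was -0.33 without ligand array 3.

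The other tested probe sets of TF did not share that difference. On 203400_s_at the signals were 11750, 13899 and 8494 with vehicle and 7833, 14504 and 16120 with the ligand, so that ligand array 3, the lowest on the first probe set, was the highest here. The log2 difference of this probe set was 0.13 ± 0.29 (SE), and that of 214064_at, with signals of 607 to 964 over the 6 arrays, was 0.11 ± 0.28 (SE). The per-array log2 ratio of the brightest to the second probe set differed between groups by -0.84, with an exact permutation p of 0.40, two-sided, where 3 against 3 arrays cannot go below 0.10. On the ACTB control probe sets, the log2 ratio of 3′ to 5′ signal, a sign of RNA quality and labelling, was 4.0 on ligand array 3 and 2.15 to 3.06 on the other 5 arrays, and its part in the TF values was not tested. The fourth probe set, 220109_at, was too dim to be tested, at 2.08 to 116.

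Ceruloplasmin, encoded by CP, is the copper oxidase that prepares iron for loading onto transferrin. On its brightest probe set, 204846_at, the signals were 55759, 61221 and 52550 with vehicle and 71572, 73936 and 55703 with the ligand. Ligand arrays 1 and 2 lay above all vehicle arrays, and ligand array 3 did not. The groups differed by 0.24 ± 0.16 (SE) on the log2 scale, and limma's adjusted p was 0.898.

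The second CP probe set, 1558034_s_at, had signals of 24921, 24166 and 32305 with vehicle and 29860, 43862 and 46214 with the ligand, a log2 difference of 0.55 ± 0.21 (SE). Its unadjusted p in limma was 0.0243 and its adjusted p 0.859, and ligand array 1 lay below vehicle array 3. The next, 228143_at, had a log2 difference of -0.13 ± 0.31 (SE). The fourth was too dim to be tested, at 45.4 to 83.5 on 5 arrays and 347 on ligand array 3.

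**Figure D2:**
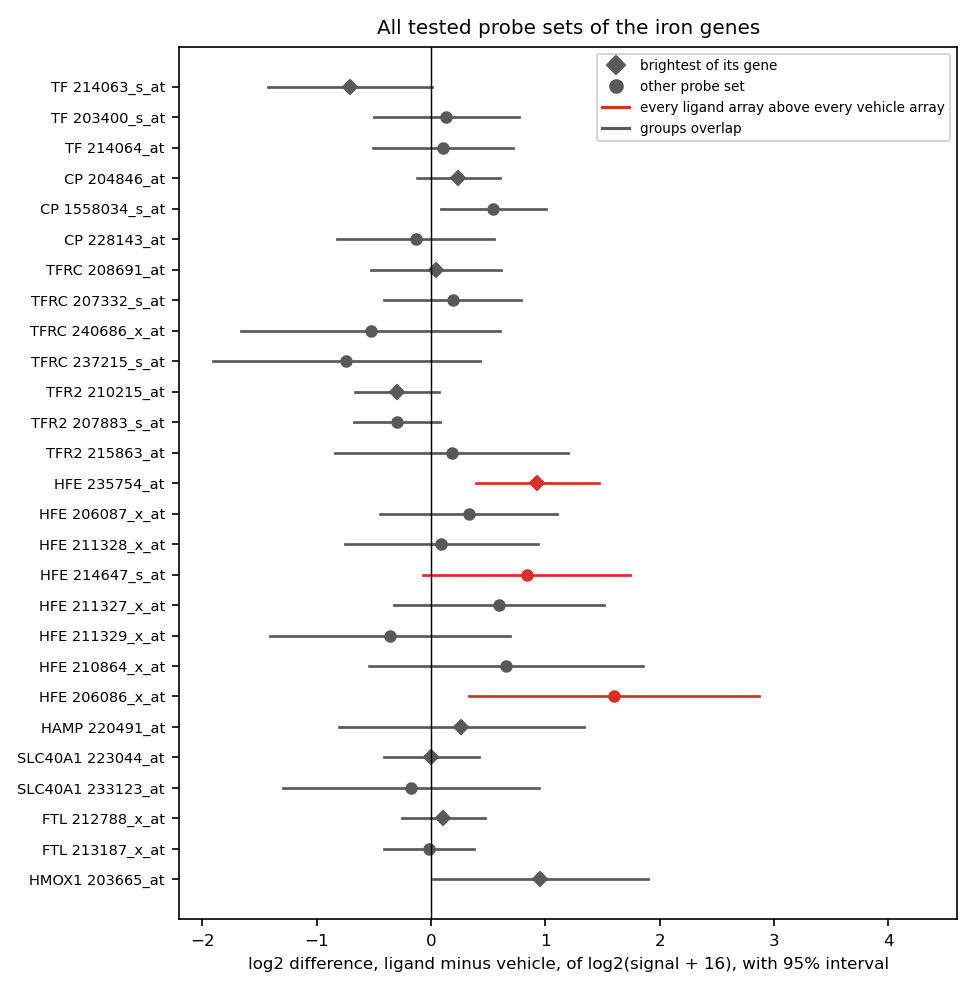
Log2 difference of each of the 27 tested probe sets, ligand minus vehicle on log2(signal + 16) (horizontal axis), with limma's 95% interval as a line; diamonds mark the brightest probe set of a gene, and red marks probe sets in which all ligand signals exceeded all vehicle signals. The 3 red ones are all HFE, and the 3 TF probe sets lie on both sides of 0, at -0.71, 0.13 and 0.11.

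The transferrin receptor TFRC, which brings transferrin-bound iron into dividing and iron-hungry cells, had signals of 1559, 965 and 1317 with vehicle and 1569, 1301 and 1073 with the ligand on 208691_at. The groups covered nearly the same range. They differed by 0.05 ± 0.26 (SE) on the log2 scale, with a 95% interval from -0.52 to 0.62, or a fold change from 0.697 to 1.53. A second bright probe set, 207332_s_at, differed by 0.19 ± 0.27 (SE). The dimmer 240686_x_at and 237215_s_at, with means of 184 and 158, differed by -0.53 ± 0.51 and -0.74 ± 0.53 (SE), and 237214_at was too dim to be tested, at 8.68 to 92.3.

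TFR2, the second transferrin receptor, is made mainly by hepatocytes and serves there as a sensor of transferrin-bound iron. Its brightest probe set, 210215_at, had signals of 58172, 61449 and 48646 with vehicle and 39537, 50156 and 47054 with the ligand. The next, 207883_s_at, had 14008, 13604 and 11305 with vehicle and 11340, 10625 and 9645 with the ligand. On both, vehicle array 3 was the lowest of its group and lay within the ligand range, and the remaining vehicle arrays lay above all ligand arrays.

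The log2 differences of these 2 TFR2 probe sets were -0.30 ± 0.17 and -0.30 ± 0.17 (SE), at limma adjusted p of 0.887 and 0.895. Their 95% intervals reached from -0.67 to 0.07 and from -0.68 to 0.08. The dim 215863_at, with a mean signal of 167, differed by 0.18 ± 0.46 (SE). Leaving out any 1 array left the 2 bright probe sets lower with the ligand, between -0.40 and -0.20 for the first and between -0.39 and -0.23 for the second.

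HFE is a relative of the antigen-presenting class I molecules that binds transferrin receptors and is the gene altered in the common form of hereditary haemochromatosis. The brightest of its 15 probe sets, 235754_at, had signals of 596, 523 and 531 with vehicle and 1072, 1267 and 879 with the ligand. All ligand signals exceeded all vehicle signals, and the vehicle arrays lay close together. The mean was 550 ± 40.3 (SD, n = 3) with vehicle and 1073 ± 194 (SD, n = 3) with the ligand. The log2 difference was 0.93 ± 0.24 (SE), with a 95% interval from 0.39 to 1.47, or 1.31-fold to 2.76-fold. Its unadjusted p in limma was 0.00304, rank 114 of 27304, and its adjusted p was 0.710, so HFE did not pass. Without any 1 array the difference stayed between 0.80 and 1.06.

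Of the 8 tested HFE probe sets, 7 were higher with the ligand and 1 was lower. On 206086_x_at the signals were 100.4, 43.3 and 54.5 with vehicle and 146, 271 and 275 with the ligand, giving 1.60 ± 0.57 (SE) on the log2 scale and an adjusted p in limma of 0.829. On 214647_s_at they were 143, 96.0 and 204 with vehicle and 262, 308 and 232 with the ligand, giving 0.84 ± 0.41 (SE) and an adjusted p in limma of 0.880. In both, again, all ligand signals exceeded all vehicle signals. However, all vehicle signals of 206086_x_at lay below the mean signal required for testing, and it reached that mean through its ligand signals. The names ending in _x_at mark probe sets whose probes may also match other transcripts, and 6 of the 8 are of that kind.

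The remaining tested HFE probe sets overlapped between the groups. Their log2 differences were 0.66 ± 0.54 for 210864_x_at, 0.59 ± 0.41 for 211327_x_at, 0.33 ± 0.35 for 206087_x_at, 0.09 ± 0.38 for 211328_x_at and -0.36 ± 0.47 for 211329_x_at (SE). Vehicle array 3 was the highest of all 6 arrays on 206087_x_at, at 803, and on 210864_x_at, at 264. On 211329_x_at ligand array 2 stood low at 80.2, and without it the difference was 0.10. Of the 7 HFE probe sets too dim to be tested, 4 were higher and 3 lower, and on 1 of them, 211326_x_at, all ligand signals exceeded all vehicle signals, at 83.7 to 164 against 17.7 to 69.0.

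**Figure D3:**
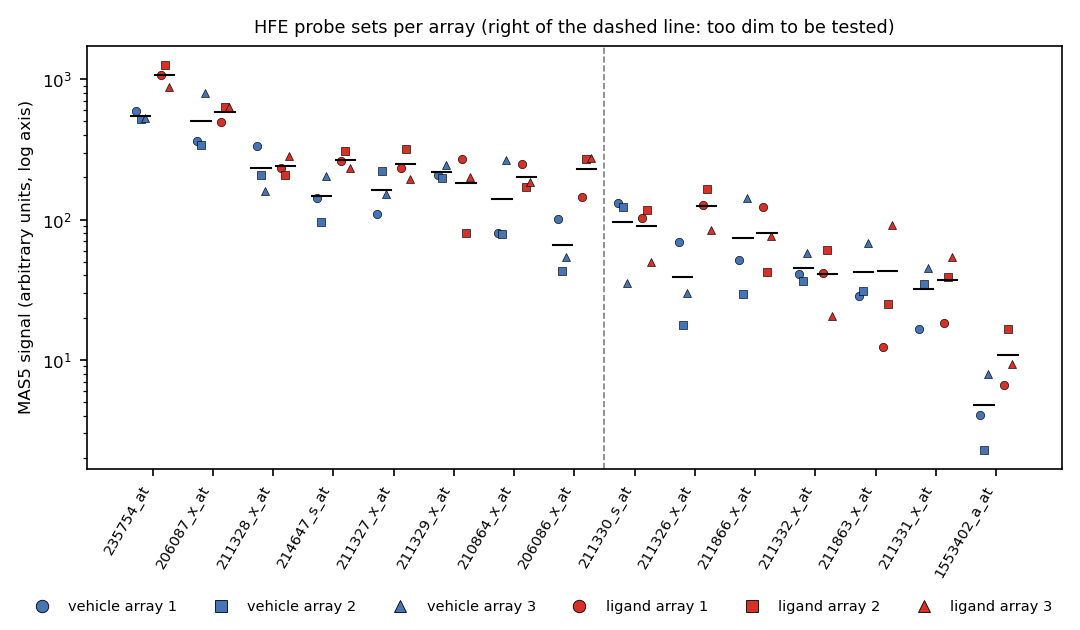
MAS5 signal (vertical axis, arbitrary units, log axis) of the 15 HFE probe sets on each array, with bars at the group means, vehicle in blue and ligand in red; probe sets are ordered by mean signal, and the 7 right of the dashed line were too dim to be tested. The groups separate on 235754_at, 214647_s_at, 206086_x_at and, among the dim ones, 211326_x_at.

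Several liver cell types make HFE, HMOX1 and ferroportin, and a piece of liver holds hepatocytes, macrophages, endothelial and stellate cells. In such a sample fewer cells of a type and less RNA per cell cannot be told apart. Of 11 listed markers of macrophages and Kupffer cells (macrophages that live in the liver), all 8 tested were higher with the ligand, with a summed signal of 5614 to 8320 on the vehicle arrays and 12769 to 13773 on the ligand arrays. No measured marker was at 0, but CLEC4F and TIMD4, listed as markers of Kupffer cells, were too dim to be tested. Both were lower with the ligand, at log2 differences of -1.76 and -0.55, and CD68 was not analysed here. Markers of stellate cells and fibroblasts were higher in 6 of 8, with summed signals of 16941 to 26601 against 32567 to 45550, and endothelial markers in 8 of 9, with 10781 to 13178 against 11188 to 14334. The ninth, VWF, the von Willebrand factor of endothelial cells and platelets, was lower, at 4667, 2129 and 1340 with vehicle and 157, 156 and 377 with the ligand, a log2 difference of -3.39 ± 0.47 (SE) and an adjusted p in limma of 0.319. Without VWF, a sum taken after the values were seen, the endothelial markers gave 8510 to 10031 with vehicle and 11032 to 13957 with the ligand, which do not overlap. Hepatocyte markers were higher in 7 of 9, with a median log2 difference of 0.08 and summed signals of 753174 to 892083 against 857016 to 963124. The part of these cell types in the HFE, HMOX1 and BMP target values was not tested.

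Hepcidin, encoded by HAMP, is the hormone through which the liver lowers plasma iron. Its single probe set, 220491_at, had signals of 86518, 22384 and 103681 with vehicle and 50671, 84784 and 81432 with the ligand. Vehicle array 2 was far below the other 5 arrays, the remaining vehicle arrays were the highest of all 6, and the ligand arrays lay between. The means were 70861 ± 42850 (SD, n = 3) with vehicle and 72296 ± 18803 (SD, n = 3) with the ligand. The log2 difference was 0.27 ± 0.48 (SE), with a 95% interval from -0.80 to 1.33, at limma adjusted p = 0.968. Its direction rested on 1 animal, since without vehicle array 2 the difference was -0.43. The highest vehicle signal of HAMP was 4.63 times the lowest, against 1.67 times among the ligand arrays, and 89.0% of tested probe sets had a smaller spread within groups.

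Ferroportin, encoded by SLC40A1, is the iron exporter that hepcidin removes. Its brightest probe set, 223044_at, had signals of 6177, 5326 and 6283 with vehicle and 6754, 6160 and 5015 with the ligand. The log2 difference was 0.0045 ± 0.19 (SE), with a 95% interval from -0.41 to 0.42, so a change beyond 1.34-fold upward or to below 0.751 of the vehicle level lay outside it. The second, 233123_at, differed by -0.17 ± 0.50 (SE), and vehicle array 2 stood at 1330 there, against 249 to 539 on the other 5 arrays. Ferroportin protein was not measured, and hepcidin acts on the protein.

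Ferritin light chain, encoded by FTL, is part of the shell in which cells store iron. On 212788_x_at the signals were 82714, 100724 and 84951 with vehicle and 110499, 83922 and 95731 with the ligand, a log2 difference of 0.11 ± 0.16 (SE). On 213187_x_at the difference was -0.02 ± 0.18 (SE). The 95% intervals reached from -0.25 to 0.47 and from -0.41 to 0.37. On both the groups overlapped, with ligand array 1 the highest of the 6. Ferritin synthesis is set largely at translation, by iron regulatory proteins on its messenger RNA, which an array of RNA levels does not read.

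HMOX1 encodes haem oxygenase, which opens the haem ring and frees its iron. Its single probe set, 203665_at, had signals of 2573, 1114 and 4593 with vehicle and 5350, 3568 and 5086 with the ligand. Vehicle array 3 lay within the ligand range and vehicle array 2 far below it. The log2 difference was 0.95 ± 0.42 (SE), with a 95% interval from 0.01 to 1.90, at an unadjusted p in limma of 0.0473 and an adjusted p of 0.880. It was 0.42 without vehicle array 2 and 1.43 without vehicle array 3. The summed macrophage markers were lowest on vehicle array 2 too, at 5614. So were the summed stellate and fibroblast markers, at 16941. The summed endothelial markers were lowest there with VWF, at 10781. Without VWF they were lowest on vehicle array 1, at 8510 against 8652 on vehicle array 2. The summed hepatocyte markers were not lowest on vehicle array 2, at 892083 there, and the part of any cell type in the HMOX1 values was not tested.

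Around these members, 84 further genes of iron and haem handling were listed in 7 groups, and 71 were tested with 1 probe set each, the brightest, while 6 were too dim and 7 were not analysed here. None passed in limma over all probe sets tested. Unadjusted, 7 of 71 (9.86%) had a p under 0.05, against 6.12% of the 13349 genes tested with 1 probe set each. The groups did not overlap in 14 of 71 (19.7%), 8 with every ligand array above and 6 with every ligand array below, against 11.4% of those genes. Higher values were found in 40 and lower in 31, and the median was 0.09 on the log2 scale. The lists were chosen with earlier results of these data known, so these shares are description and no test.

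The genes listed for the control of hepcidin by BMP and SMAD signalling stood mostly on the higher side. The list mixes receptors, ligands, a protease and target genes, so a count over it gives no direction for the pathway. It was also chosen with earlier results of these data known, so its counts are description and no test. Of 17 tested genes, of 19 listed, 13 were higher and 4 lower with the ligand. The median log2 difference, the highest of the 7 lists, was 0.29 against 0.0032 over all probe sets tested, of which 50.3% were higher. In 5 of 17 all ligand signals exceeded all vehicle signals, against 5.99% of all probe sets tested, and in 0 of 17 all were below. Among the 13349 genes tested with 1 probe set each, 11.4% did not overlap in either direction. ID3, an inhibitor of helix-loop-helix factors switched on by BMP, had signals of 522, 272 and 763 with vehicle and 1178, 1094 and 1149 with the ligand. ATOH8, a transcription factor of the same response, had 912, 881 and 859 with vehicle and 1423, 1438 and 1552 with the ligand. In both genes the ligand arrays lay close together and above every vehicle array. The log2 differences were 1.23 ± 0.34 for ID3 and 0.72 ± 0.21 for ATOH8 (SE), each at limma adjusted p = 0.825, and the next-brightest ATOH8 probe set differed by -0.02.

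Other targets of the same signal overlapped between the groups. ID1, SMAD6 and SMAD7, further BMP target genes, had log2 differences of 0.31 ± 0.28, 0.24 ± 0.22 and -0.04 ± 0.38 (SE). The receptors ACVR1, ACVR2A and BMPR2 were higher on every ligand array than on any vehicle array, with log2 differences of 0.43 ± 0.23, 0.28 ± 0.18 and 0.30 ± 0.21 (SE). HJV, the coreceptor hemojuvelin, differed by 0.45 ± 0.33 (SE), TMPRSS6, the protease that cuts hemojuvelin, by 0.29 ± 0.27 (SE), and BMP6, the ligand that endothelial cells release under iron load, by -0.54 ± 0.32 (SE). HAMP itself, downstream of these genes, had the log2 difference of 0.27 ± 0.48 (SE) given above.

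**Figure D4:**
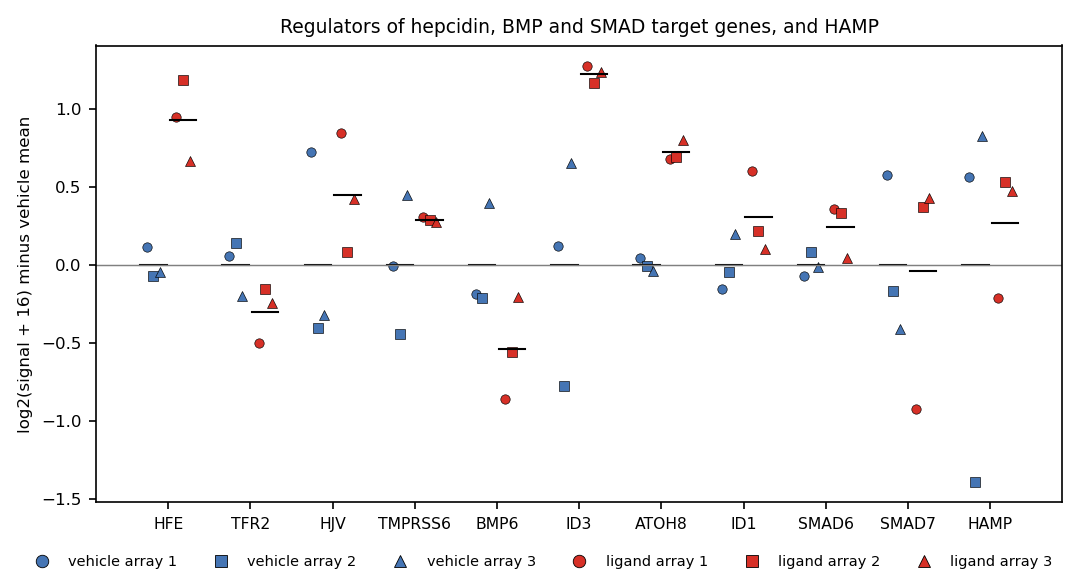
Log2(signal + 16) of each array minus the vehicle mean (vertical axis) for 5 regulators of hepcidin, 5 BMP and SMAD target genes and HAMP, brightest probe set each, with bars at the group means. HFE, ID3 and ATOH8 separate the groups, at mean differences of 0.93, 1.23 and 0.72, while HAMP overlaps, with vehicle array 2 the lowest point.

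Genes of the inflammatory route to hepcidin were lower more often than higher. Of 9 tested genes of the IL6 and STAT3 group, 3 were higher and 6 lower, at a median of -0.14 on the log2 scale. CEBPA, a hepatocyte transcription factor that also drives HAMP, had signals of 22342, 12581 and 16381 with vehicle and 12618, 10917 and 10107 with the ligand, a difference of -0.57 ± 0.22 (SE). IL6R, the receptor subunit that binds interleukin 6, was lower on every ligand array than on any vehicle array, at 4004, 8386 and 4818 with vehicle and 2869, 3785 and 3721 with the ligand, a difference of -0.66 ± 0.27 (SE). Limma's adjusted p was 0.873 and 0.874. A dimmer tested IL6R probe set differed by -0.14, and STAT3, which carries the signal to the HAMP promoter, by -0.15 ± 0.21 (SE).

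Among 11 tested genes of iron carriage and uptake, 5 were higher and 6 lower, and the median log2 difference was -0.01. STEAP4, a membrane reductase of iron and copper, had signals of 423, 166 and 202 with vehicle and 658, 593 and 470 with the ligand, a difference of 1.17 ± 0.37 (SE). SLC11A2, the divalent metal transporter that moves iron out of endosomes, had 2065, 1911 and 3226 with vehicle and 1818, 1341 and 1416 with the ligand, a difference of -0.62 ± 0.25 (SE). Each separated the groups, at limma adjusted p of 0.829 and 0.873, but 2 dimmer tested SLC11A2 probe sets differed by -0.08 and 0.03. SLC39A14, through which hepatocytes take up iron not bound to transferrin, was also lower on every ligand array than on any vehicle array, with a difference of -0.31 ± 0.18 (SE).

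Haem scavenging and breakdown split evenly, with 6 of 13 genes higher, 7 lower and a median log2 difference of -0.0014. CD163, the macrophage receptor for haemoglobin bound to haptoglobin, had signals of 1441, 982 and 1470 with vehicle and 2228, 2283 and 1822 with the ligand, a difference of 0.71 ± 0.23 (SE) with an adjusted p of 0.829 in limma. CD163 is itself one of the macrophage markers above. HP, the haptoglobin that CD163 recognises, differed by -0.54 ± 0.26 (SE). SLC48A1, which moves haem out of the lysosome, was lower on every ligand array than on any vehicle array, at 899, 938 and 764 with vehicle and 639, 644 and 519 with the ligand, a difference of -0.52 ± 0.24 (SE). A second bright SLC48A1 probe set differed by -0.64 and a dim one by 0.20. BLVRA and BLVRB, the biliverdin reductases that act after haem oxygenase, differed by 0.48 ± 0.29 and 0.40 ± 0.26 (SE).

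The remaining groups had medians near 0. Of 7 tested genes of haem synthesis, 5 were higher and 2 lower, at a median of 0.02 on the log2 scale, and UROD and FECH, late enzymes of that pathway, differed by 0.53 ± 0.25 and 0.48 ± 0.26 (SE). Of 7 tested iron regulatory and oxygen-sensing genes, 4 were higher and 3 lower, with a median of 0.08. There HIF1A, the oxygen-regulated transcription factor, was higher on every ligand array than on any vehicle array, by 0.40 ± 0.18 (SE), FBXL5, the iron-sensing ligase subunit that degrades iron regulatory proteins, differed by -0.74 ± 0.48 (SE), or -0.13 without ligand array 1, and ACO1, an iron regulatory protein, by 0.08 ± 0.23 (SE). Of 7 tested genes of mitochondrial iron and iron-sulphur clusters, 4 were higher and 3 lower, with a median of 0.04. CIAO1, of cytosolic cluster assembly, was lower on every ligand array than on any vehicle array, by -0.66 ± 0.31 (SE), and SLC25A37, the mitochondrial iron importer, differed by -0.66 ± 0.35 (SE), with its 5 other tested probe sets between -0.998 and 0.80. HBB, a red cell marker, stood at 11085 on vehicle array 1 and at 600 to 1255 on the other 5 arrays. The other tested red cell markers were not high on vehicle array 1. AHSP and CA1 were lowest there, at 134 against 138 to 426 and at 167 against 212 to 440. SLC4A1 stood at 108 there, against 49.0 to 289. The part of red cells in these values was not tested.

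**Figure D5:**
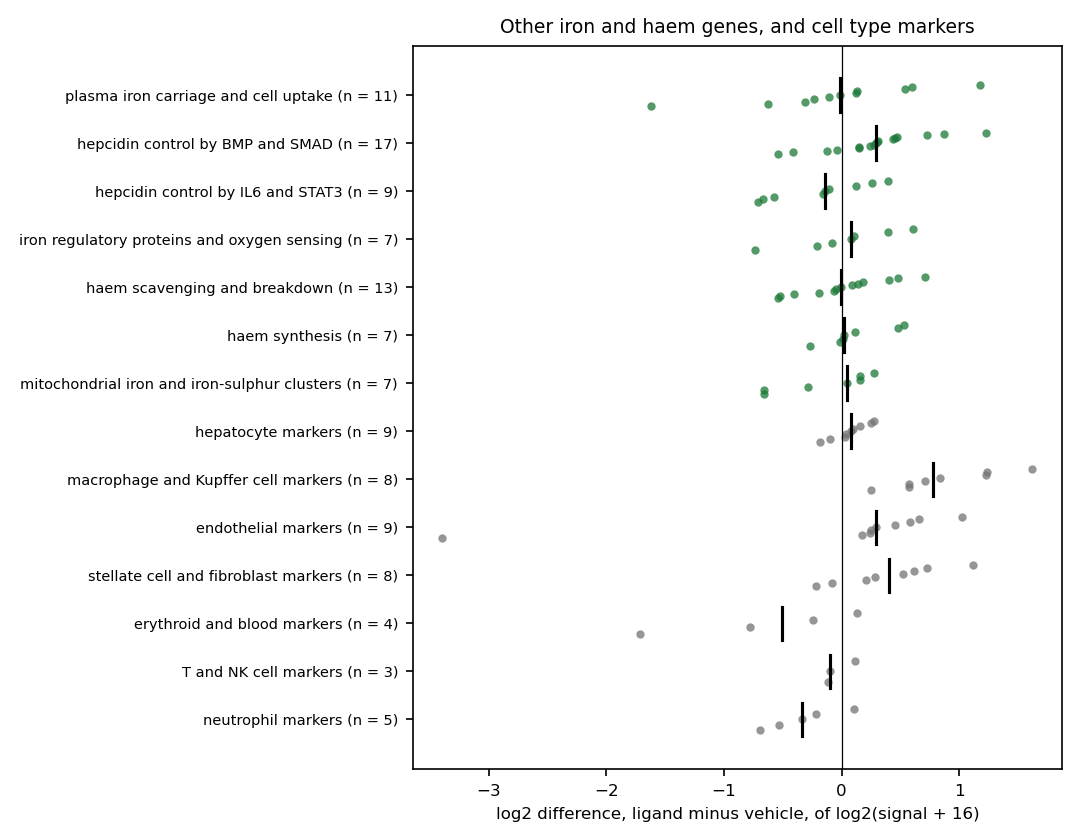
Log2 difference, ligand minus vehicle on log2(signal + 16) (horizontal axis), of each tested gene in the 7 groups of other iron and haem genes (green) and the 7 groups of cell type markers (grey), with a bar at each group's median. Among the green groups the BMP and SMAD genes have the highest median, 0.29, and the IL6 and STAT3 genes the lowest, -0.14; the macrophage markers lie at 0.77.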

How the data were processed

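The authors deposited 1 linear intensity per probe set and array. The submitters' processing notes name MAS5, whose version and scaling target were not given in the sources used here. Detection calls were not used here. Each array's group came from its title, and each array is a separate animal per the design text.

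Values were transformed to log2(signal + 16), keeping the deposited scaling. Leaving out 62 control probe sets, limma 3.58.1 (R 4.3.3) tested the 27304 probe sets with a mean signal at or above the median, using lmFit and trended eBayes, two-sided, without covariates, with Benjamini-Hochberg adjustment and a threshold of 0.05. The test was also run on simulated data with known changes, whose outcome is not reported here, and no result above rests on it. Intervals are at 95%. Gene names came from the platform annotation, and all 10 member symbols also occur in the macaque RefSeq gene table. Figures used Python 3.11.15 and matplotlib 3.10.9.

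Named were all members, the 2 genes of smallest p in each of 7 pathway lists, 3 known LXR targets, and for each member the probe set of another gene most like it over the arrays. Further pathway genes (receptors, BMP targets and regulators, STAT3, SLC39A14, HP, BLVRA, BLVRB, ACO1) were chosen after their values were seen, to describe the lists. The members and lists were chosen with earlier results of these data known. Alternatives were median centring, quantile normalization, a pseudocount of 1 or 64, the filter raised to the 75th percentile or dropped, untrended or robust eBayes, a block for replicate number, array weights, a threshold of 0.10, other probe sets, and leaving out each array.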

Additional observations from a re-analysis of the deposited data

How the results depend on the processing

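With 3 arrays in a group and human probes on macaque RNA, dim probe sets limit what can be seen, and 10 of 37 member probe sets were too dim to be tested. No member and no pathway gene passed in limma under any of the 16 alternative fits or at a threshold of 0.10. Over all 17 fits the smallest limma adjusted p of a member ran from 0.488 to 0.933, and the unadjusted p of the brightest HFE probe set from 0.00236 to 0.0165. The count of member probe sets with an unadjusted p under 0.05, 4 as reported, was 2 when the filter was raised to the 75th percentile and 18 were tested, and 2 to 7 when an array was left out, with 7 without vehicle array 3. Over all probe sets tested, 0 to 1 were called when an array was left out. Deviations from the group mean correlated at 0.04, -0.03 and 0.07 between same-numbered arrays, and at -0.076 to 0.034 between arrays of different number. With 3 arrays in a group these values cannot settle whether the numbers pair the arrays. With the replicate number as a block (a replicate block), 0 members passed in limma and 5 had an unadjusted p under 0.05. At that p stood 6.25% of all probe sets tested, and the unadjusted limma p of HMOX1 was 0.00889.

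Of 430 values of 44 named probe sets under settings other than leaving out an array, 2 changed sign, both for the brightest SLC40A1 probe set, -0.039 under median centring and -0.0037 with array weights. Leaving out an array changed 21 of 264 signs. The ranges were -0.43 to 0.68 for HAMP, -0.089 to 0.13 and -0.68 to 0.49 for the brighter and the dimmer SLC40A1 probe set, -0.14 to 0.20 and -0.015 to 0.42 for the 2 brightest of TFRC, -0.16 to 0.073 for FTL 213187_x_at, -0.065 to 0.45 and -0.012 to 0.31 for TF 203400_s_at and 214064_at, -0.44 to 0.11 for CP 228143_at, -0.039 to 0.43 for TFR2 215863_at, and -0.13 to 0.37 and -0.68 to 0.098 for HFE 211328_x_at and 211329_x_at. SREBF1 passed without ligand array 2, at 3.06.

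Other probe sets of a named gene opposed its brightest in 30 of 66 cases; the cause was not tested. The log2 differences of these were 0.13, 0.11 and 0.30 for TF, -0.13 for CP, -0.74 and -0.53 for TFRC, 0.18 for TFR2, -0.36, -0.0078, -0.16 and -0.17 for HFE, -0.17 for SLC40A1 and -0.017 for FTL. Among the other genes they were 0.025 and 0.65 for SLC11A2, -0.020 for ATOH8, 0.57 for IL6R, 0.995 for FBXL5, -0.62 for CD163, 0.20 for SLC48A1, -0.47 for UROD, -0.14 for FECH, 0.11, 0.96, 0.80 and 0.051 for SLC25A37, 0.90 for CIAO1, -0.60 for SREBF1 and -0.10 and -0.45 for MYLIP. Some came from probe sets too dim to be tested. These were 0.30 for TF, -0.0078, -0.16 and -0.17 for HFE, 0.65 for SLC11A2 and 0.57 for IL6R. So were 0.995 for FBXL5, -0.62 for CD163, -0.47 for UROD, 0.96 for SLC25A37 and 0.90 for CIAO1. The other tested probe sets of CD163 and CIAO1 went the same way as the brightest, at 0.79 ± 0.32 and -0.91 ± 0.73 (SE).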

Other observations

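Vehicle array 2 was at an extreme of the 6 arrays for several iron and haem genes. HAMP stood at 22384 there and at 50671 to 103681 on the other 5 arrays, HMOX1 at 1114 against 2573 to 5350, and ID3 at 272 against 522 to 1178. The dimmer SLC40A1 probe set was highest there, at 1330 against 249 to 539, as was IL6R, at 8386 against 2869 to 4818. FTL and the brightest SLC40A1 probe set were not at an extreme on that array, at 100724 and 5326. Other arrays were at an extreme elsewhere, ligand array 3 as the lowest for TF 214063_s_at and ligand array 1 as the highest for HMOX1 and both FTL probe sets. No count of such extremes over all probe sets was taken.

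For each member's brightest probe set, the probe set of another gene whose log2 values were most like it over the 6 arrays was found among 22556 to 22563 candidates. For HFE it was MX2, an antiviral GTPase, with Pearson's r = 0.991 and Spearman's rho = 0.943, and MX2 itself had a log2 difference of 0.92. For HAMP it was CASP6 (r = 0.995), for HMOX1 SERPINH1 (r = 0.998) and for TF ELP5 (r = 0.996), and for TFR2 it was NDC1 (r = 0.994). For TFRC it was ATP6V1G1 (r = 0.996), for FTL H2AJ (r = 0.995), for SLC40A1 EXOSC6 (r = 0.99) and for CP SMIM11 (r = 0.987). These values describe 6 shared arrays and carry no test, and for HAMP 79 and for HMOX1 114 probe sets had an r over 0.95.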
